A study of Mus musculus with 6 samples.

Results

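The genes described here encode enzymes that make or remove reactive oxygen and nitrogen species in the intestinal epithelium and in phagocytes. They were chosen by symbol and comprise the epithelial oxidase genes Duox2, Duoxa2, Nox1, Noxo1 and Noxa1, the phagocyte oxidase genes Cybb and Cyba, the inducible nitric oxide synthase gene Nos2, and the detoxifying enzyme genes Gpx2 and Sod2. All 10 genes were found among the 27546 genes of the deposited table. RNA-Seq had been carried out on distal colon of 3 Gm31629-/- mice, which lack a long noncoding RNA gene throughout the body, and of 3 WT littermates on the C57BL/6 background. Mice of both genotypes were 8 weeks old, drank 3% dextran sulfate sodium (DSS, a polymer that injures the colonic epithelium) over 7 days, and were sacrificed on day 8. No untreated mice were part of the comparison, which therefore asks how the genotypes differ under injury and not what DSS does.

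NADPH oxidases carry electrons across a membrane to oxygen and release superoxide or hydrogen peroxide. In the gut epithelium, DUOX2 needs its maturation factor DUOXA2 to reach the apical surface, and NOX1 needs an organizer, NOXO1, an activator, NOXA1, and the small membrane partner encoded by Cyba. In neutrophils and macrophages, the product of Cybb forms the same kind of membrane complex with the Cyba product and is switched on by cytosolic subunits such as those encoded by Ncf1 and Ncf4. Nos2 makes nitric oxide from arginine, Sod2 converts superoxide to hydrogen peroxide in mitochondria, and Gpx2 is the glutathione peroxidase of the gastrointestinal epithelium, which reduces hydroperoxides.

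Expression was given as FPKM, that is, fragments divided by the exon length of a gene and by the depth of its library, so that levels of different genes can be set side by side. The depth recovered from the FPKM values was 18002700 to 18792800 fragments per library. Genes were compared with limma on log2(FPKM + 1), and a gene was called higher or lower at a Benjamini-Hochberg adjusted p under 0.05 over the 14657 genes tested together with a log2 fold change above 1 or below -1. Over the tested genes, the log2 fold change had a median of 0.15 in the deposited values, of 0.02 when libraries were rescaled by median ratios and of 0.67 when they were scaled to 15 epithelial marker genes. The level of the deleted gene was not analysed here, so the genotype labels were not checked against it. Transcripts of 4 Y-linked genes were found in the library of Gm31629-/- mouse 1 alone, and Xist, the RNA of the inactive X chromosome, was at 8.35 to 13.8 FPKM in the other 5 libraries and at 0.00606 FPKM in that one. The study's methods describe male mice, so the libraries do not all go with that description. Fits without Gm31629-/- mouse 1 are given where they changed a call of an enzyme gene or of a pathway gene named below. They are also given for the epithelial, T cell and B and plasma cell markers whose call they changed.

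The tissue of the genotypes differed in markers of several cell types other than phagocytes and epithelium. Of 10 smooth muscle markers, 9 were called higher, with summed levels of 1409 to 2296 FPKM in Gm31629-/- mice and 21.8 to 43.8 FPKM in WT mice. All 7 fibroblast markers were called higher (167 to 499 against 18.7 to 37.0 FPKM), as were all 6 B and plasma cell markers (232 to 419 against 14.6 to 21.5 FPKM) and 2 of 6 T cell markers. Without Gm31629-/- mouse 1, the B cell marker Ms4a1 (0.997 on the log2 scale) and the T cell marker Trac (0.993) were no longer called. Of the 6 fits without 1 mouse, Ms4a1 was called in 1 and Trac in 3. The part of these cell types in the results on single genes was not tested.

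Of the 10 genes, Cybb was higher and Nox1, Noxa1 and Gpx2 were lower in Gm31629-/- mice, and the other 6 were not called. Among all tested genes, 18.4% were called higher and 4.64% lower. The libraries of the genotypes did not overlap for the same 4 genes, 1 with higher and 3 with lower values in Gm31629-/- mice, beside 36.3% and 21.5% of all tested genes. The median log2 fold change of the 10 genes was 0.00. Without Gm31629-/- mouse 1, the same 4 genes were called in the same directions, with log2 fold changes of -1.96 for Nox1 and 2.64 for Cybb, both of which lie on the X chromosome.

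**Figure D1:**
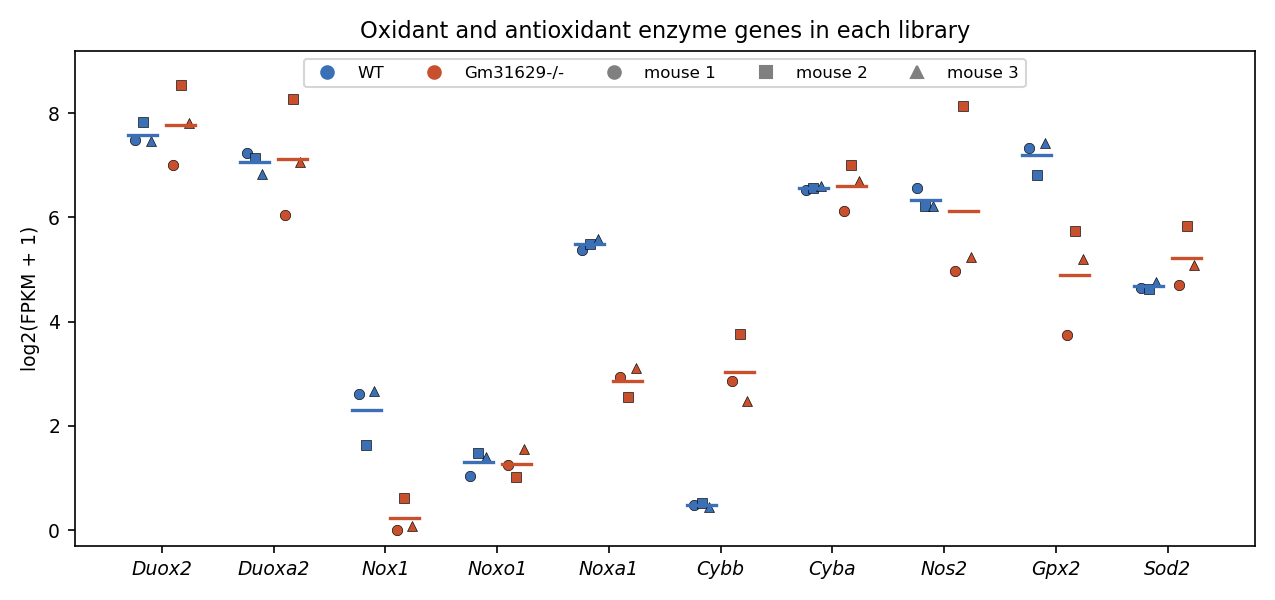
Level of each of the 10 genes in each library, as log2(FPKM + 1), with WT in blue and Gm31629-/- in red, a different symbol for each mouse, and a line at the mean of 3 mice. Nox1, Noxa1 and Gpx2 lie lower and Cybb higher in all 3 Gm31629-/- mice, whereas the 3 Gm31629-/- values of Duox2, Duoxa2, Cyba and Nos2 spread on either side of the WT values.

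In WT mice, Duox2 had the highest mean level at 193 FPKM and Cybb the lowest at 0.399 FPKM. Between them in falling order stood Gpx2, Duoxa2, Cyba, Nos2, Noxa1, Sod2, Nox1 and Noxo1. Gpx2 and Duoxa2 overlapped between libraries, as did Cyba and Nos2, and every other pair of neighbours in that order was separate in all 3 WT mice. In Gm31629-/- mice, Duox2 was again highest at 240.0 FPKM and Nox1 was lowest at 0.197 FPKM. There, Duox2, Duoxa2, Nos2 and Cyba overlapped from neighbour to neighbour, as did Sod2, Gpx2, Cybb and Noxa1, whereas Noxo1 lay below Noxa1 and above Nox1 in every library.

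Neither gene of the dual oxidase pair passed the test. Duox2 (ENSMUSG00000068452) lies on chromosome 2 from 122279247 to 122298449 of GRCm38 on the minus strand, and Duoxa2 (ENSMUSG00000027225) starts next to it on the plus strand and runs from 122298900 to 122302885. Duox2 was at 127, 370.1 and 223 FPKM in Gm31629-/- mice 1 to 3 and at 178, 226 and 176 FPKM in WT mice 1 to 3. The WT values lay within the range of the Gm31629-/- values, of which mouse 1 was lowest and mouse 2 highest. The means were 240.0 ± 122 (SD, n = 3) and 193 ± 28.2 FPKM (SD, n = 3), with a log2 fold change of 0.19 (SE 0.36, adjusted p = 0.697 by limma). Duoxa2 followed with 65.1, 309 and 132.5 FPKM in Gm31629-/- mice and 150.2, 141 and 113 FPKM in WT mice, so that mouse 1 of the Gm31629-/- group was again below and mouse 2 again above every WT mouse. Its log2 fold change was 0.05 (SE 0.50, adjusted p = 0.940 by limma), and rescaling by the median ratio turned it to -0.12. Leaving out Gm31629-/- mouse 2 turned both genes to negative values, -0.19 for Duox2 and -0.52 for Duoxa2, and leaving out Gm31629-/- mouse 1 gave 0.58 and 0.59. In strand-less counting, 42.8% of the exon bases of Duoxa2 are shared with Duoxa1 on the opposite strand, which was at 0.522 to 3.01 FPKM.

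The start sites of this pair are 673 bases apart in RefSeq and the genes point away from each other, so their promoters are shown together. Each sequence holds the 250 bases before and the 50 bases after the RefSeq start (GRCm38.p6), read 5′ to 3′ on the strand of the gene, with capitals marking matches to the motifs named below.
Duox2, chr2:122298178-122298477, minus strand: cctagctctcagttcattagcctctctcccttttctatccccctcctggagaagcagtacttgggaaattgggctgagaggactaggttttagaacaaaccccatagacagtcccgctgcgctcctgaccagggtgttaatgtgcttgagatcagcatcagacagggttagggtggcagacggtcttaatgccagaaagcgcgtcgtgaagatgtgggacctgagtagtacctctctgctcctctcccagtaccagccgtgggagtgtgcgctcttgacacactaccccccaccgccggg
Duoxa2, chr2:122298650-122298949, plus strand: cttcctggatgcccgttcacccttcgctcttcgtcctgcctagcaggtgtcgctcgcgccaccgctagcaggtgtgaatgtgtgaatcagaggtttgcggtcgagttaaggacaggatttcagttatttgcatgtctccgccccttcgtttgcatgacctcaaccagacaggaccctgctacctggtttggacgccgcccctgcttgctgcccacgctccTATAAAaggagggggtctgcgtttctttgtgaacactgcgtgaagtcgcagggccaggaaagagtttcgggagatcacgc

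The catalytic and activator genes of the NOX1 system fell in Gm31629-/- mice, and its organizer gene was not called. Nox1 (ENSMUSG00000031257, chromosome X, 134086421 to 134221956, minus strand), the catalytic subunit, was listed at 0, 0.541 and 0.0494 FPKM in Gm31629-/- mice 1 to 3 and at 5.12, 2.099 and 5.39 FPKM in WT mice 1 to 3. By the recovered depth these values stood for 0, 33 and 3 fragments against 313, 125 and 335 fragments, and a value of 0 allows up to 3 fragments by counting error alone. All 3 Gm31629-/- mice were below all 3 WT mice, and WT mouse 2 was the lowest of its group. The mean went from 4.20 ± 1.83 (SD, n = 3) to 0.197 ± 0.299 FPKM (SD, n = 3), a 21.4-fold lower level, with a log2 fold change of -2.08 (SE 0.32, adjusted p = 0.00283 by limma). That fold rests on mouse 2 of the Gm31629-/- group, which held 33 of the 36 fragments of the group. Without it the mean was 0.0247 FPKM from 3 fragments, and the log2 fold change was -2.27 (limma adjusted p = 0.00409). The added 1 FPKM holds down the change of a gene at this level, and voom on the recovered fragments gave -5.93 (adjusted p = 0.00738).

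Noxa1 (ENSMUSG00000036805, chromosome 2, 25085667 to 25095149, minus strand), the activator of NOX1, fell to a like level in all 3 Gm31629-/- mice. It was at 6.62, 4.89 and 7.64 FPKM in Gm31629-/- mice and at 40.3, 44.0 and 47.1 FPKM in WT mice. The groups were far apart, and neither had a library away from the others. The mean was 6.86-fold lower in Gm31629-/- mice, at 6.38 ± 1.39 FPKM (SD, n = 3) against 43.8 ± 3.40 FPKM (SD, n = 3), with a log2 fold change of -2.62 (SE 0.18, adjusted p = 0.000218 by limma). Noxo1 (ENSMUSG00000019320, chromosome 17, 24696234 to 24700529, plus strand), the organizer, was low in every library, at 1.37, 1.03 and 1.95 FPKM in Gm31629-/- mice and 1.04, 1.79 and 1.64 FPKM in WT mice. Its groups overlapped, with a log2 fold change of -0.03 (SE 0.21, adjusted p = 0.923 by limma) that was 0.37 after scaling to the epithelial markers. Without strand information, 70.4% of the exon bases of Noxo1 are shared with Tbl3 on the opposite strand. How fragments in those bases were assigned is not known, so the level of Noxo1 is uncertain. Tbl3 was itself at 2.79 to 4.21 FPKM in Gm31629-/- mice and 3.75 to 6.40 FPKM in WT mice. For Nox1, 12.1% of exon bases are shared with Cstf2, which was itself at 2.11 to 2.95 FPKM in Gm31629-/- mice and 3.69 to 5.21 FPKM in WT mice.

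The promoters of the genes that fell are given with that of Cybb, which rose, since these are the 4 genes whose levels separated the genotypes. The RefSeq start used is at 134111854 for Nox1 and at 9469324 for Cybb. Both positions lie well inside the spans given for these genes and not at their upstream ends.
Nox1, chrX:134111805-134112104, minus strand: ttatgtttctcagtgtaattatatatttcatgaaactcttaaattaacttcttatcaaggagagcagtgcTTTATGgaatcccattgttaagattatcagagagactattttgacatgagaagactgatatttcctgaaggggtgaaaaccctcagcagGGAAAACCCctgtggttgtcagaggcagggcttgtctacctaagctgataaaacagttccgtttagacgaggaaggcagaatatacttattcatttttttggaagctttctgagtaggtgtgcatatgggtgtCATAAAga
Noxa1, chr2:25095156-25095455, minus strand: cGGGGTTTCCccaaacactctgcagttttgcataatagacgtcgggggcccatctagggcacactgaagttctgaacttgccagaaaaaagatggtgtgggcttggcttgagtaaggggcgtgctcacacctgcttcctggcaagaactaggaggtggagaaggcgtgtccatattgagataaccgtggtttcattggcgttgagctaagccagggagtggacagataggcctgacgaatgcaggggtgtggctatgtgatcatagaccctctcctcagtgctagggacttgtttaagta
Gpx2, chr12:76795505-76795804, minus strand: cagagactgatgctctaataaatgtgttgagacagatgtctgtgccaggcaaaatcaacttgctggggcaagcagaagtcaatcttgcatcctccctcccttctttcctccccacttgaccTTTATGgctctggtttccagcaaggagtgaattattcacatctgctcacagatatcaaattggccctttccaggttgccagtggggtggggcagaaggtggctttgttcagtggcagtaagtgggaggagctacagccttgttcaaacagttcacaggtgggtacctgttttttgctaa
Cybb, chrX:9469275-9469574, minus strand: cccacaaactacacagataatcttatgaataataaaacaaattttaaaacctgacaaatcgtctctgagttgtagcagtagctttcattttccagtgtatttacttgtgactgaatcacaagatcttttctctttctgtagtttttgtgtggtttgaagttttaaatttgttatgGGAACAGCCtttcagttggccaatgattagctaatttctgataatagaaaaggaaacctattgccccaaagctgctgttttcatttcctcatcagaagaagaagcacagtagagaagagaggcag
The motifs searched on both strands of the promoters of 9 of the 10 genes were the core of the antioxidant response element (TGACNNNGC, held by 12.39% of all 32851 promoters), a STAT motif (TTCNNNGAA, 8.298%), a shortened NF-kappaB motif (GGNNNTTCC, 18.48%), a PU.1 motif (GAGGAAGT, 3.202%), a TCF motif (CTTTGA, 16%), a CDX motif (TTTATG, 11.85%) and the TATA box (TATAAA, 13.62%). The Nox1 promoter held the CDX motif at positions -180 to -175 from the start and, on the other strand, at 42 to 47, and the NF-kappaB motif on the other strand at -91 to -83. The NF-kappaB letters were also present in Noxa1 at -249 to -241 and, on the other strand, in Cybb at -75 to -67. The Gpx2 promoter held the CDX motif at -129 to -124, and the Duoxa2 promoter held a TATA box at -30 to -25. Of the promoters not shown, Cyba held a TCF match and Sod2 a STAT match. None of the 7 motifs was found in these windows of Duox2 and Noxo1. A match is a likeness of letters and was not tested as a binding site. Nos2 was not matched in the promoter table.

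The catalytic subunit gene of the phagocyte oxidase rose, and the gene of its membrane partner was not called. Cybb (ENSMUSG00000015340, chromosome X, 9435252 to 9487771, minus strand), the catalytic subunit in neutrophils and macrophages, was at 6.27, 12.5 and 4.59 FPKM in Gm31629-/- mice 1 to 3 and at 0.400, 0.440 and 0.357 FPKM in WT mice 1 to 3. These values stood for 670, 1343 and 490 fragments against 43, 46 and 39 fragments. WT mice were nearly level, whereas mouse 2 of the Gm31629-/- group stood above the other two, and the groups did not overlap. The mean was 19.5-fold higher in Gm31629-/- mice, at 7.80 ± 4.18 FPKM (SD, n = 3) against 0.399 ± 0.0413 FPKM (SD, n = 3), with a log2 fold change of 2.55 (SE 0.32, adjusted p = 0.00123 by limma) and of 4.15 by voom on the recovered fragments (adjusted p = 0.00147).

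Cyba (ENSMUSG00000006519, chromosome 8, 122424776 to 122432930, minus strand), which encodes the membrane partner of both the NOX1 and the phagocyte enzyme, was more abundant than Nox1 and Cybb in every library. It was at 68.4, 128 and 103 FPKM in Gm31629-/- mice and at 91.5, 94.2 and 96.7 FPKM in WT mice. The WT values lay within the Gm31629-/- range, where mouse 1 was lowest and mouse 2 highest. The log2 fold change was 0.04 (SE 0.23, adjusted p = 0.909 by limma), and it was -0.13 after rescaling by the median ratio and -0.17 without Gm31629-/- mouse 2.

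Markers of phagocytes moved with Cybb, as did the smooth muscle, fibroblast and B and plasma cell markers given above. All 10 neutrophil markers were called higher, and their summed level was 527 to 1044 FPKM in Gm31629-/- mice and 72.9 to 131 FPKM in WT mice, most of it from Ly6g. Of the 6 fits without 1 mouse, Mmp9 was called in 2 and Csf3r in 5, and the other neutrophil markers in all 6. Over Gm31629-/- mice 1 to 3, Ly6g was at 288, 596 and 965 FPKM. S100a8, S100a9, Mmp8, Retnlg and Il1r2 fell in that order, with S100a9 at 119.8, 77.2 and 35.0 FPKM. Csf3r, Cxcr2, Mmp9 and Trem1 were highest in mouse 2. The sum thus follows a marker whose order the others do not share. Of 12 macrophage and monocyte markers, 11 were called higher, with summed levels of 349 to 700.4 FPKM in Gm31629-/- mice and 45.0 to 54.7 FPKM in WT mice, and the exception was Mertk at a log2 fold change of -0.45. No marker of these lists was listed at 0 in any library. The share of the Cybb difference that goes with these markers was not tested. In whole tissue, more cells of a type and more RNA per cell cannot be told apart.

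Nos2 varied most of all 10 genes but Nox1 among the Gm31629-/- mice, relative to its mean. Nos2 (ENSMUSG00000020826, chromosome 11, 78920787 to 78960254, plus strand) was at 30.5, 279.8 and 37.0 FPKM in Gm31629-/- mice 1 to 3 and at 93.4, 73.5 and 73.8 FPKM in WT mice 1 to 3. Gm31629-/- mice 1 and 3 were thus below every WT mouse, and mouse 2 was above every WT mouse. The coefficient of variation was 122.8% over Gm31629-/- mice and 14.25% over WT mice. The log2 fold change was -0.22 (SE 0.77, adjusted p = 0.837 by limma). Without Gm31629-/- mouse 2 it became -1.22 and Nos2 was called lower (limma adjusted p = 0.00349), which made 5 called genes of 10. Without Gm31629-/- mouse 1 it was 0.36 (limma adjusted p = 0.730), so the direction of Nos2 rested on single mice.

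Of the enzymes that remove oxidants, Gpx2 fell and Sod2 was not called. Gpx2 (ENSMUSG00000042808, chromosome 12, 76792333 to 76795554, minus strand) was at 12.4, 52.8 and 36.1 FPKM in Gm31629-/- mice 1 to 3 and at 161, 111 and 171 FPKM in WT mice 1 to 3. Every Gm31629-/- mouse was below every WT mouse, with mouse 1 of the Gm31629-/- group and mouse 2 of the WT group lowest of their groups. The mean was 4.38-fold lower in Gm31629-/- mice, at 33.7 ± 20.3 FPKM (SD, n = 3) against 148 ± 32.0 FPKM (SD, n = 3), with a log2 fold change of -2.29 (SE 0.48, adjusted p = 0.00905 by limma). Without Gm31629-/- mouse 1 it was -1.71 (limma adjusted p = 0.00318). Gpx2 has a processed pseudogene, Gpx2-ps1, which was at 0 in 5 libraries and at 0.559 FPKM in WT mouse 3, so that few fragments were assigned to it.

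Sod2 (ENSMUSG00000006818, chromosome 17, 13006846 to 13040063, plus strand) was at 25.2, 56.4 and 33.2 FPKM in Gm31629-/- mice and at 24.1, 23.6 and 26.1 FPKM in WT mice. Mice 2 and 3 of the Gm31629-/- group were above all WT mice and mouse 1 was within their range. On the log2 scale the fold change was 0.54 (SE 0.28, adjusted p = 0.152 by limma). It was 0.79 without Gm31629-/- mouse 1 (limma adjusted p = 0.0364), 0.23 without mouse 2, and 1.21 after scaling to the epithelial markers, where Sod2 was called higher (limma adjusted p = 0.0131).

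**Figure D2:**
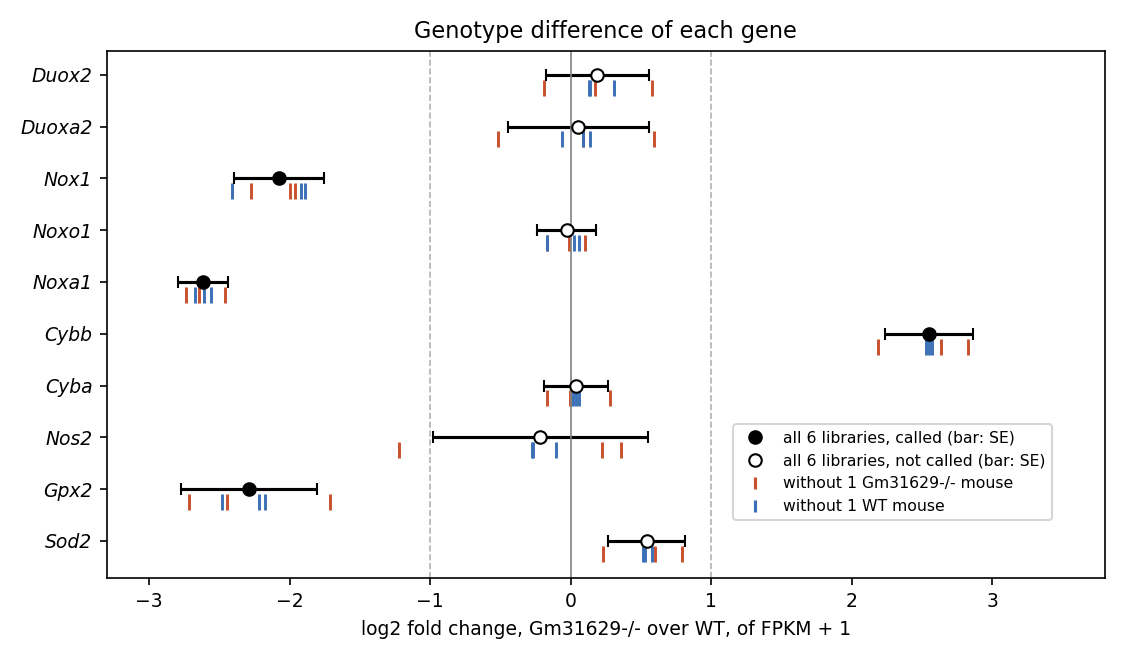
Log2 fold change of FPKM + 1, Gm31629-/- over WT, of each gene over all 6 libraries, with the standard error as a bar and called genes filled, and ticks below each point for the fits that leave out 1 Gm31629-/- mouse (red) or 1 WT mouse (blue). The ticks of Nox1, Noxa1, Cybb and Gpx2 stay beyond the dashed lines at -1 and 1, and those of Nos2 run from -1.22 to 0.36.

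The 4 called genes held an adjusted p under 0.05 in all 6 limma fits that left out 1 mouse. In those fits the log2 fold change of Noxa1 ran from -2.74 to -2.46, that of Nox1 from -2.41 to -1.89, that of Cybb from 2.19 to 2.83 and that of Gpx2 from -2.71 to -1.71. The adjusted p of Gpx2 ran up to 0.0417 and those of Nox1 up to 0.0169.

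Epithelial markers were lower on balance, so the epithelial genes were also set against them. Of 15 epithelial markers, 5 were called lower and 0 higher, at summed levels of 7912 to 9433 FPKM in Gm31629-/- mice and 12855 to 14064 FPKM in WT mice. Without Gm31629-/- mouse 1, Krt8 (-0.91 on the log2 scale) and Krt19 (-0.87) were no longer called. Of the 6 fits without 1 mouse, Phgr1 was called in 2, Krt19 in 4, Krt8 and Cdx1 in 5, and Cdx2 in 6. Epcam, the epithelial adhesion molecule, was at a log2 fold change of 0.01 and Cdh1 at -0.04. Cdx2, the intestinal transcription factor, fell by 3.14. The sum leans on the markers of highest level, above all Krt8 and Krt19 in WT mice. Their means were 4198 and 2068 FPKM in WT mice and 2042 and 1042 FPKM in Gm31629-/- mice. Levels over single epithelial markers were not tested. Over the summed markers, the log2 level of Noxa1 in Gm31629-/- mice minus that in WT mice was -1.96, that of Gpx2 differed by -1.63 and that of Nox1 by -1.42, and in each case the genotypes did not overlap. Duox2, at a difference of 0.85, and Sod2, at 1.20, were higher over the summed markers in every Gm31629-/- mouse, as were Noxo1 at 0.63 and Cyba at 0.69. Duoxa2 at 0.71 and Nos2 at 0.44 overlapped. For the genes without overlap the two-sided exact permutation test gave p = 0.1, the smallest that 3 against 3 mice allow, and 0.11 after adjustment over 30 such comparisons, so none could pass the threshold. Scaling every library to the epithelial markers kept Nox1 at -1.75, Noxa1 at -1.97 and Gpx2 at -1.61 among the called genes (limma adjusted p = 0.00381, 0.000195 and 0.0258). By that scaling Duox2 was at 0.88 and not called (limma adjusted p = 0.0820). The scaling takes the mean log2 level of the 15 markers. Cdx2, with its fall of 3.14, thus weighs as much as Epcam at 0.01 or Cdh1 at -0.04. Every value after this scaling, that of Sod2 included, rests on this choice of markers.

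Cybb was also set against the markers of phagocytes, of which the neutrophil sum is mostly Ly6g. Its log2 level over the summed macrophage and monocyte markers differed by -0.66 and over the neutrophil markers by -0.43 (exact permutation p = 0.1 and 0.6), without overlap of the genotypes in the former and with overlap in the latter. With a pseudocount of 0.1 in place of 1, these differences were 0.65 and 0.87, so the direction depended on the pseudocount.

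Ratios between genes were taken within each library, on FPKM + 1, to set partner genes against each other. Nox1 over Cybb, the epithelial against the phagocyte catalytic subunit, had a mean log2 ratio of 1.82 in WT mice and -2.80 in Gm31629-/- mice, a difference of -4.63. Gpx2 over Sod2 went from 2.52 to -0.31, a difference of -2.83, and Cybb over Cyba went from -6.09 to -3.57, a difference of 2.51. Nox1 over Noxo1 went from 1.00 to -1.04, with the level of Noxo1 uncertain for the exon bases it shares with Tbl3. For these 4 ratios, and for Cybb over Ncf1 with a difference of 0.58, the genotypes did not overlap. Duox2 over Duoxa2 was 0.52 in WT mice and 0.65 in Gm31629-/- mice, and Nox1 over Noxa1 was -3.18 and -2.64, with overlap in either case. The direction of Nox1 over Noxa1 depended on the pseudocount, with a difference of 0.54 at 1 FPKM and of -1.45 at 0.1 FPKM. Duox2 over Nos2 also overlapped, at 1.26 and 1.66. Over the 8 ratios, the two-sided exact permutation p was 0.1 for the 5 ratios without overlap and 0.16 after adjustment, and 0.1 is the smallest p that this design allows.

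**Figure D3:**
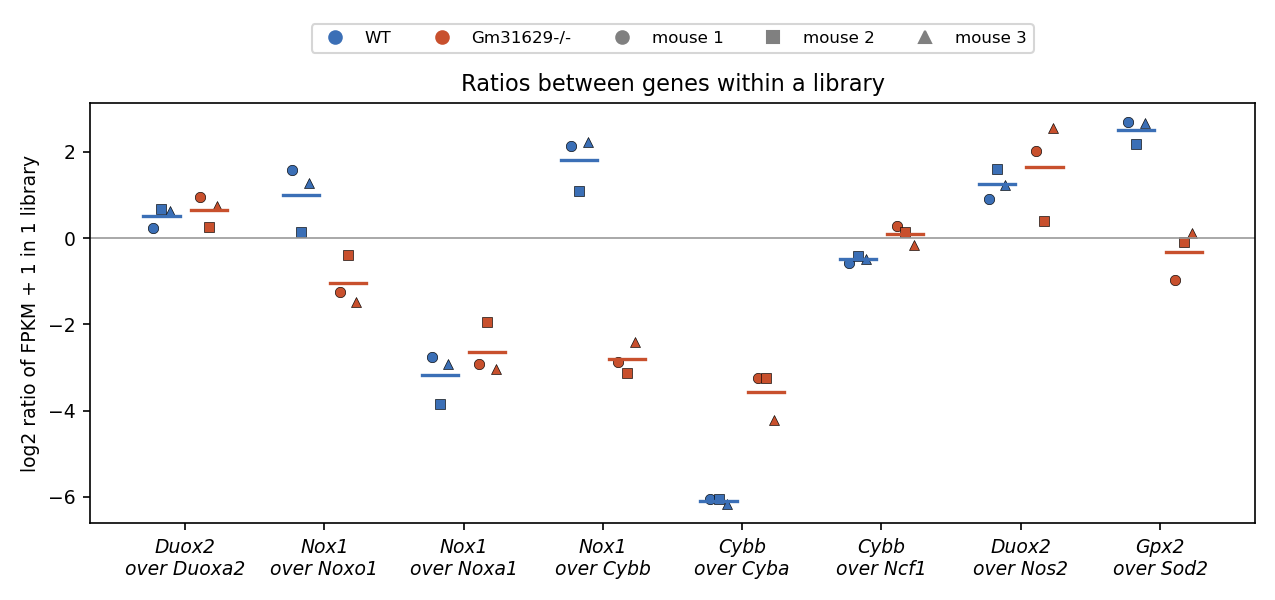
Log2 ratio of FPKM + 1 between pairs of genes in each library, with WT in blue and Gm31629-/- in red, a different symbol for each mouse, and a line at the mean of 3 mice. Nox1 over Cybb lies above 0 in all 3 WT mice and below 0 in all 3 Gm31629-/- mice, whereas Duox2 over Duoxa2 lies above 0 in all 6.

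Of 61 other genes of oxidant and antioxidant pathways, cytokines included, 58 were in the table and 52 were tested. Of these, 15 were called higher and 4 lower, that is, 28.8% and 7.69% beside 18.4% and 4.64% of all tested genes, with a median log2 fold change of 0.24. Scaling to the epithelial markers gave 19 higher and 1 lower, and rescaling by the median ratio gave 14 higher and 6 lower. Of the genes named below, the epithelial scaling called Cybc1 (1.17), Gpx7 (1.27) and Xdh (1.23) higher as well.

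Among partners of the oxidases, 3 of 6 cytosolic subunit and chaperone genes of the phagocyte enzyme were called higher and 0 lower. The organizer Ncf1 rose from 1.077, 0.925 and 0.901 FPKM in WT mice to 5.01, 11.3 and 5.22 FPKM in Gm31629-/- mice, which is 1.97 on the log2 scale (limma adjusted p = 0.00226). Ncf4 and the haematopoietic GTPase gene Rac2 rose by 2.17 and 2.06. The chaperone gene Cybc1 was at a log2 fold change of 0.53 (limma adjusted p = 0.0360), short of the fold threshold. The phagocyte markers above moved with these genes as well. Of the other NADPH oxidase and DUOX genes, only Duoxa1 was expressed enough to be tested, at a log2 fold change of 0.58 (limma adjusted p = 0.143), with Nox4 and Duox1 below 0.2 FPKM in every library.

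Of 8 nitric oxide synthase and arginine genes, 3 were called higher and 1 lower. The neuronal synthase gene Nos1 was at 6.02, 9.32 and 1.84 FPKM in Gm31629-/- mice and at 0.00970, 0.0149 and 0.00477 FPKM in WT mice, the latter standing for 2, 3 and 1 fragments, with a log2 fold change of 2.55 (limma adjusted p = 0.00403). The endothelial synthase gene Nos3 rose by 1.62 and Ass1, which remakes arginine from citrulline, by 1.53. Arg2, a mitochondrial arginase, fell by 1.01. Its call was lost without Gm31629-/- mouse 3 (-0.84), WT mouse 2 (-0.93) or WT mouse 3 (-0.89) and after scaling to the epithelial markers (-0.44). The call of Ass1 was lost without WT mouse 2 or WT mouse 3 (limma adjusted p = 0.0667 and 0.0666). Markers of the cell types in which Nos1 and Nos3 are typically found moved with them: 6 of 7 neuronal and glial markers were called higher, with sums of 23.5 to 72.9 FPKM against 2.60 to 4.57 FPKM, and 5 of 5 endothelial markers, with sums of 29.3 to 65.1 FPKM against 1.83 to 4.61 FPKM. Elavl4, a marker of enteric neurons, was listed at 0 in all 3 WT mice, and the share of these markers in the Nos1 and Nos3 differences was not tested.

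Of 9 tested glutathione genes, 2 were called higher and 1 lower. Gpx3, the secreted plasma glutathione peroxidase, was at 220.4, 301 and 199.6 FPKM in Gm31629-/- mice and at 10.3, 18.3 and 12.4 FPKM in WT mice, a rise which is 4.05 on the log2 scale (limma adjusted p = 0.000160) and opposite in direction to Gpx2. Gpx8, a peroxidase of the endoplasmic reticulum, rose by 3.35, and Gss, the glutathione synthetase, fell by 1.45 but was no longer called after scaling to the epithelial markers (-0.80). Gpx7, a further peroxidase of the endoplasmic reticulum, was at a log2 fold change of 0.69. Gpx3 and Gpx8, and Sod3, Pxdn and Maob below, were higher in the genotype in which smooth muscle and fibroblast markers were higher. Markers of phagocytes, endothelium, neurons and glia, and B and plasma cells were higher there too. In Gm31629-/- mouse 1 the smooth muscle sum (2296 FPKM) and Maob were highest of the group. The fibroblast sum (167 FPKM), Sod3 and Pxdn were lowest in that mouse. The cell types behind these differences were not tested. Gpx2 was above Gpx3 in each WT library and below it in each Gm31629-/- library.

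Of 3 superoxide dismutase and catalase genes, Sod3 was called higher and Cat lower. Sod3, the extracellular enzyme, was at 11.3, 60.5 and 42.9 FPKM in Gm31629-/- mice and at 3.64, 7.90 and 5.07 FPKM in WT mice, a log2 rise of 2.35 (limma adjusted p = 0.0161). Its call was lost without Gm31629-/- mouse 3, WT mouse 1 or WT mouse 3 (limma adjusted p = 0.0546, 0.0582 and 0.0581). Cat fell from 35.4 ± 6.25 (SD, n = 3) to 16.1 ± 2.14 FPKM (SD, n = 3), and after scaling to the epithelial markers it was at -0.42 on the log2 scale and not called, as it was at -0.97 without Gm31629-/- mouse 3 and at -0.96 without WT mouse 2. Sod1, the cytosolic enzyme, was at -0.69 (limma adjusted p = 0.0161), short of the fold threshold.

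In the NRF2 pathway, which induces antioxidant enzymes, 1 of 4 genes was called higher and 1 lower. Nqo1, a quinone reductase, was at 3.85, 3.70 and 2.73 FPKM in Gm31629-/- mice and at 29.6, 41.3 and 45.3 FPKM in WT mice, an 11.3-fold lower mean with a log2 fold change of -3.15 (limma adjusted p = 0.000195). It was called in each of the 6 fits without 1 mouse and after scaling to the epithelial markers, at -2.54. Hmox1, the inducible haem oxygenase, rose by 1.74, whereas Keap1 at -0.93 and Nfe2l2, which encodes NRF2 itself, at -0.72 had an adjusted p of 0.00238 and 0.0167 by limma without passing the fold threshold. By the median ratio, Keap1 was called lower (-1.09).

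Of 11 peroxiredoxin and thioredoxin genes, Prdx6 was called higher and 0 lower. Prdx6 was at 719.8, 654 and 1862 FPKM in Gm31629-/- mice and 346, 439 and 335 FPKM in WT mice, a log2 rise of 1.37 (limma adjusted p = 0.0284). It was not called after rescaling by the median ratio (limma adjusted p = 0.0595), without Gm31629-/- mouse 3, where it was at 0.89, or without any 1 WT mouse (limma adjusted p = 0.0549 to 0.0979). Prdx3, the mitochondrial peroxiredoxin, was at -0.98, Txnrd2 at -0.68 and Prdx2 at -0.60, all short of the fold threshold. Prdx3 was called lower by the median ratio (-1.15), by voom (-1.005), without Gm31629-/- mouse 1 (-1.08) and without WT mouse 2 (-1.04), and Txnrd2 by voom (-1.01). Of 2 tested haem peroxidase genes, Pxdn, which crosslinks basement membrane collagen, rose by 2.07 and Lpo was at 0.12. Of 3 tested genes of other oxidases, Maob rose by 1.19, with Maoa at -0.82 and Xdh at 0.54.

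**Figure D4:**
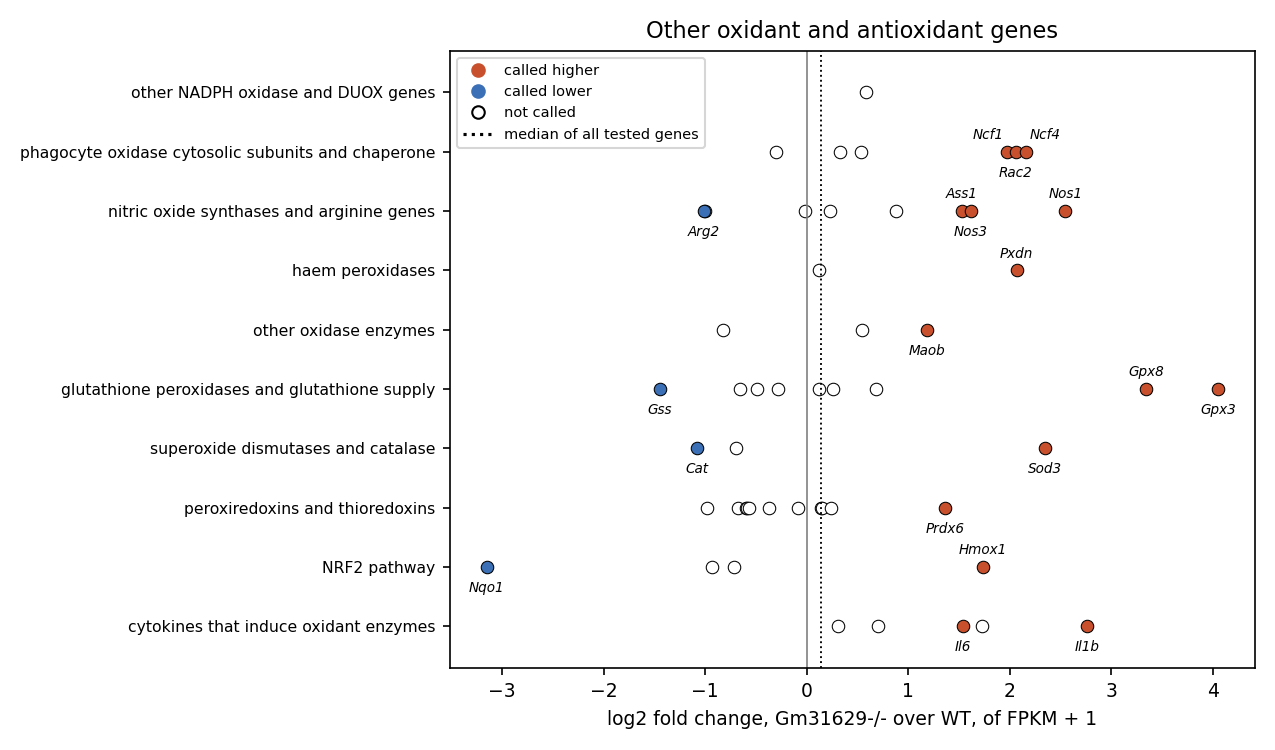
Log2 fold change of FPKM + 1, Gm31629-/- over WT, of the 52 tested genes of other oxidant and antioxidant lists, 1 row for each list and 1 point for each gene, with called genes filled and named and a dotted line at the median of all tested genes (0.15). Gpx3 and Gpx8 lie farthest to the right and Nqo1 farthest to the left.

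The genes with the pattern most like that of 5 of the enzymes were found by the root mean square difference of log2(FPKM + 1) over the 6 libraries, each gene centred on its mean. Nearest to Nox1 were Pold2, at a difference of 0.0954, Aurkb, at 0.147, and E2f8, at 0.156, which encode a DNA polymerase subunit, a mitotic kinase and a transcription factor of the cell cycle. Their WT levels were also lowest in mouse 2, at 17.1 FPKM for Pold2 beside 34.4 and 30.7 FPKM. Nearest to Cybb were Lilr4b (0.0584), Gpr37l1 (0.0892) and Clip4 (0.0938), nearest to Duox2 were Myo1c (0.109), Mir148a (0.115) and Rnf183 (0.115), and nearest to Gpx2 were Cyp4f40 (0.331), Ccnd1 (0.393) and Fkbp4 (0.419). Nearest to Nos2 were Tph1 (0.317), Gm12891 (0.369) and Trim15 (0.398). The added 1 FPKM compresses differences of low genes, so a near pattern on this scale need not be a like fold. Mean levels went from 27.4 FPKM in WT mice to 5.56 FPKM in Gm31629-/- mice for Pold2, beside 4.20 to 0.197 FPKM for Nox1. They went from 0.0313 to 4.86 FPKM for Clip4, beside 0.399 to 7.80 FPKM for Cybb.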

How the data were processed

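RNA-Seq libraries from distal colon of 3 Gm31629-/- and 3 WT mice were grouped and numbered by their labels. The authors deposited 1 table of FPKM values for 27546 genes. The submitters' processing notes name HISAT2 2.1.0, HTSeq 0.6.0 and GRCm38, without roles, and the strand setting is not given in the sources used here. The methods speak of pooled RNA, but the table has a column for each library, and these were treated as separate mice. Where libraries are not separate mice, p-values measure the spread between libraries only. DEGseq, which the study used, needs counts and was not repeated.

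Identifiers were matched to GENCODE M21 for 27488 genes. Fragments were recovered from FPKM, exon length and depth: of values of up to 20 fragments, 96.3% to 97.2% per library lay within 0.1 of a whole number. The genotypes were compared by limma 3.58.1 under R 4.3.3, with lmFit and a trended eBayes fit to log2(FPKM + 1), over the 14657 genes that averaged 0.5 FPKM or more across libraries, with Benjamini-Hochberg adjustment. This scale understates changes of low genes. Ratios were compared with exact permutation tests (scipy 1.17.1, Python 3.11.15), figures drawn with matplotlib 3.10.9, and the scripts tested on simulated data. The limit given for a value of 0 covers counting error only, whereas the SD and SE values measure the spread between libraries. Of each pathway list, up to 4 tested genes with the largest log2 fold change in size were to be named with values, together with the 3 genes of nearest pattern for each of 5 enzymes. Genes outside this rule (the genes below the filter, single markers and neighbouring genes) were named after their values were seen, and some listed genes are not reported here by name. The genes and lists were chosen with earlier results of these data known.

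The alternatives were no filter, a filter at a mean of 5 FPKM, a pseudocount of 0.1, the TPM scale, the median ratio, scaling to 15 epithelial markers, no trend, the replicate number as a block, voom on recovered fragments, an unadjusted p, and leaving out each mouse. Promoter sequences came from RefSeq (GRCm38.p6).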

Additional observations from a re-analysis of the deposited data

How the results depend on the processing

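The calls of Nox1, Noxa1, Cybb and Gpx2 held under each alternative that tested them. At a mean FPKM of at least 5, Nox1, Noxo1 and Cybb were not tested, and the counts were 2 of the enzyme genes, 12 of the pathway genes and 1449 of all genes (956 higher, 493 lower), beside 4, 19 and 3384. The share of called genes that were higher was 79.9% as deposited, 70.5% by the median ratio (2377 higher, 994 lower), 95.5% after scaling to the epithelial markers (4800 higher, 224 lower) and 66.0% at a mean FPKM of at least 5. The replicate number as a block gave 3357 called genes, 4 of the enzyme genes and 19 pathway genes, and changed no call among the enzymes. Deviations of same-numbered mice correlated at 0.04, -0.11 and 0.01, so the numbers were not taken to pair mice. Leaving out 1 mouse gave 2810 to 3606 called genes, 4 to 5 enzyme genes and 14 to 22 pathway genes. Genes that were not called changed sign: Duoxa2 (-0.12) and Cyba (-0.13) by the median ratio, and Noxo1 (0.37) and Nos2 (0.47) by the epithelial scaling. Leaving out 1 mouse gave -0.19 to 0.58 for Duox2, -0.52 to 0.59 for Duoxa2, -0.17 to 0.10 for Noxo1, -0.17 to 0.28 for Cyba and -1.22 to 0.36 for Nos2. It gave -0.013 to 0.33 for Duox2 over Duoxa2, -0.044 to 1.03 for Duox2 over Nos2, -0.78 to 0.080 for Cybb over neutrophil markers and -0.58 to 0.96 for Nos2 over epithelial markers. A pseudocount of 0.1 turned Nox1 over Noxa1 to -1.45, Cybb over neutrophil markers to 0.87 and Cybb over macrophage and monocyte markers to 0.65. Nox1 was at 0 to 0.541 FPKM in Gm31629-/- mice and Cybb at 0.357 to 0.440 FPKM in WT mice. Both are below the added 1 FPKM, which understates changes of low genes. The cause of the sign changes was not tested. Depth limits Nox1 in Gm31629-/- mice, at 0 to 33 fragments.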

Other observations

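Gm31629-/- mouse 2 had the highest level of its group for 8 of the 10 enzyme genes (80%) and for 44.0% of all tested genes. Gm31629-/- mouse 1 was highest for 0 of the 10 and for 38.2% of all tested genes. The exceptions were Noxo1 and Noxa1, the partners of NOX1, which were highest in mouse 3. The coefficient of variation over Gm31629-/- mice was above that over WT mice for all 10 genes, at 30.07% against 2.744% for Cyba and 42.43% against 5.338% for Sod2. The share of all tested genes with this direction was not computed, so the count cannot be read as particular to these genes.

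Of 6 listed cytokine genes known to induce such enzymes, the 5 that were tested were highest in mouse 2 of the Gm31629-/- group, as were 44.0% of all tested genes. Of these 5, 2 were called higher and 0 lower. Il1b was at 16.7, 124.7 and 37.6 FPKM in Gm31629-/- mice 1 to 3 and at 5.75, 5.18 and 5.52 FPKM in WT mice 1 to 3, a log2 fold change of 2.77 (limma adjusted p = 0.0117). Il6 rose by 1.54 (limma adjusted p = 0.0277), at 0.470, 4.53 and 2.65 FPKM against 0.0438 to 0.0915 FPKM, and it was called without Gm31629-/- mouse 1 and in no other fit without 1 mouse (limma adjusted p = 0.0537 to 0.0865). Il22, which acts on epithelial cells, was at 0.0490, 16.9 and 2.11 FPKM in Gm31629-/- mice and had 8, 1 and 2 fragments in WT mice, where the groups overlapped and the fit gave 1.73 on the log2 scale (limma adjusted p = 0.158). Il17a was at 0, 1.85 and 1.49 FPKM in Gm31629-/- mice, with a log2 fold change of 0.71 (limma adjusted p = 0.177). Without Gm31629-/- mouse 1, Il22 and Il17a were called higher, at 2.67 and 1.18 on the log2 scale (limma adjusted p = 0.0207 and 0.00368). Whether the level of these cytokines bears on that of the enzymes in the same mice was not tested.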
